A study of Mus musculus with 2 samples.

Results

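The genes described here are the semaphorins, plexins, neuropilins, netrins, Unc5 receptors, Eph receptors and ephrins, chosen by gene symbol alone: every listed gene whose symbol belongs to one of these families by its stem, 61 of the 26100 genes that both matrices list. They comprise 20 semaphorins, 9 plexins, 2 neuropilins, 4 netrins, 4 Unc5 receptors, 9 EphA and 5 EphB receptors, 5 ephrin-A and 3 ephrin-B ligands. The study profiled 2 mouse cultures cell by cell with the 10x Genomics 3′ assay, which tags every captured RNA molecule with its own short barcode (a UMI), so that counts are of molecules. The MEF library holds embryonic fibroblasts, connective tissue cells grown in culture, labelled as kept in MEF media. The iMPC library holds induced myogenic progenitor cells, which were generated from such fibroblasts with MyoD, the muscle master regulator, together with a treatment given as F/R/C, and were kept in F/R/C media. Both groups carry the genotype Tg:Pax7-nGFP/C57BL6;DBA2, a green reporter driven by Pax7, so the reporter does not separate them. With 1 library in each group there are no replicates, no difference below was tested, and the intervals (exact, 95%) cover counting error in these libraries or cell sets only.

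Guidance proteins were first known for steering axons, and they also position cells, blood vessels and muscle attachments. Semaphorins are secreted, membrane-bound or lipid-anchored ligands whose main receptors are plexins, and most secreted class 3 semaphorins need a neuropilin as the binding partner of a plexin. Netrins are laminin-related secreted proteins read by Dcc, neogenin and the Unc5 receptors, while Eph receptor tyrosine kinases bind ephrins on neighbouring cells, so that both cells can receive a signal. In skeletal muscle, satellite cells are known to release semaphorin 3A, and ephrins and Eph receptors are known to guide migrating progenitors.

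Levels were taken in MEF cells and in 4 sets of iMPC cells cut by UMIs of genes that are not guidance genes. The MEF cells numbered 6043 (118069653 UMIs, median 18929 per cell). The Pax7 set, cells with a UMI of the satellite cell factor Pax7 and none of Myog, held 2180 cells (44019573 UMIs, median 18729.5). The Myog set, with at least 5 UMIs of the commitment factor Myog and at most 1 of the muscle creatine kinase gene Ckm, held 1724 cells (46198097 UMIs, median 23857.5). The Ckm set, with at least 5 Ckm UMIs, held 1037 cells (48655216 UMIs, median 42148), and the Dcn set, with at least 5 UMIs of the fibroblast proteoglycan decorin, held 553 (12173604 UMIs, median 18064). Of the 9349 iMPC cells, 4001 (42.8%) fell in none of the 4 sets and 146 (1.56%) in more than 1, among them 110 cells of the Dcn set that were also in the Pax7 set. The kept cells of the libraries shared 16 barcode sequences, which is 0.265% of the MEF cells.

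Marker lists, summed over their genes, showed what else the sets held. The 7 fibroblast markers summed to 5700 CPM (UMIs of the genes per 1000000 UMIs of the set) in MEF and 3004 CPM in the Dcn set, against 66.5 to 562 CPM in the other sets. The 6 myocyte markers, however, also summed to 3267 CPM in the Dcn set, with Acta1 at 1313 CPM, against 639 CPM in the Pax7 set, 10116 CPM in the Myog set and 36844 CPM in the Ckm set, so the Dcn set held muscle RNA as well. The 4 smooth muscle markers, which cultured fibroblasts can also express, summed to 9883 CPM in MEF, above the fibroblast list, with Acta2 at 6108 CPM, against 402 to 858 CPM in the iMPC sets. They therefore moved with every difference from MEF below, and their part in it was not tested. The 8 satellite cell markers summed to 647 CPM in the Pax7 set and 264 to 372 CPM in the other sets, but not each followed that order: Vcam1 was at 191 CPM in MEF against 42.6 CPM in the Pax7 set, and Itga7 was highest in the Ckm set at 143 CPM. Doublets marked by Scrublet, which were kept because the cell sets have no doublet filter, made up 1.15% of the Pax7 set and 6.32 to 7.05% of the other 3 iMPC sets. The 4 cycling markers summed to 775 CPM in the Pax7 set, 529 in the Myog set, 238 in the Dcn set, 117 in MEF and 63.5 in the Ckm set. Markers of cell types that use these genes in tissue were near 0: the 5 endothelial markers summed to 0.409 to 1.19 CPM over the sets, with Emcn at 0 UMIs in all 4 iMPC sets, and the glial factor Sox10 was at 0 UMIs in the Dcn set. Of the glial list, S100b reached 11.4 CPM in the Dcn set, and of the neuron list Stmn2 reached 172 CPM in the Pax7 set, while Snap25 was at 20.1 CPM in the Dcn set and under 7 CPM elsewhere, and Elavl4 and Syt1 stayed under 1 CPM in every set.

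All 61 guidance genes were looked up in every set. A level of at least 5 CPM in a set was reached by 41, at most 1 to 5 CPM by 10, and under 1 CPM everywhere by the other 10. A UMI count is not divided by gene length, since the assay counts 3′ ends. Levels here are compared between cell sets, for single genes or family sums, and differences between genes are not interpreted. A family sum can follow a single gene: Unc5b gave 1716 of the 1813 Unc5 UMIs in the Dcn set. At about 10 CPM the counting intervals were narrow: Plxna2 in MEF was at 11.0 CPM (10.4 to 11.6), Sema6d in the Pax7 set at 10.8 CPM (9.84 to 11.8), and Efna4 in the smallest set, the Dcn set, at 10.3 CPM (8.55 to 12.2).

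The summed level of the 61 genes was highest in the Dcn set at 1005 CPM (987 to 1023). It was 755 CPM (750 to 760) in MEF, 673 CPM (666 to 681) in the Pax7 set, 504 CPM (497 to 510.4) in the Myog set and 372 CPM (367 to 378) in the Ckm set. Receptors and partners of several families were lowest in the Ckm set: the 2 neuropilins summed to 80.9 CPM in MEF, 96.2 in the Dcn set, 64.8 in the Pax7 set, 16.8 in the Myog set and 5.51 in the Ckm set. The semaphorins did not share that order, with 188 CPM in MEF, 419 in the Dcn set, 260 in the Pax7 set, 280 in the Myog set and 222 in the Ckm set. The EphA receptors stood apart in MEF, at 64.3 CPM (62.9 to 65.8) against 5.88 to 13.1 CPM in the iMPC sets.

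**Figure D1:**
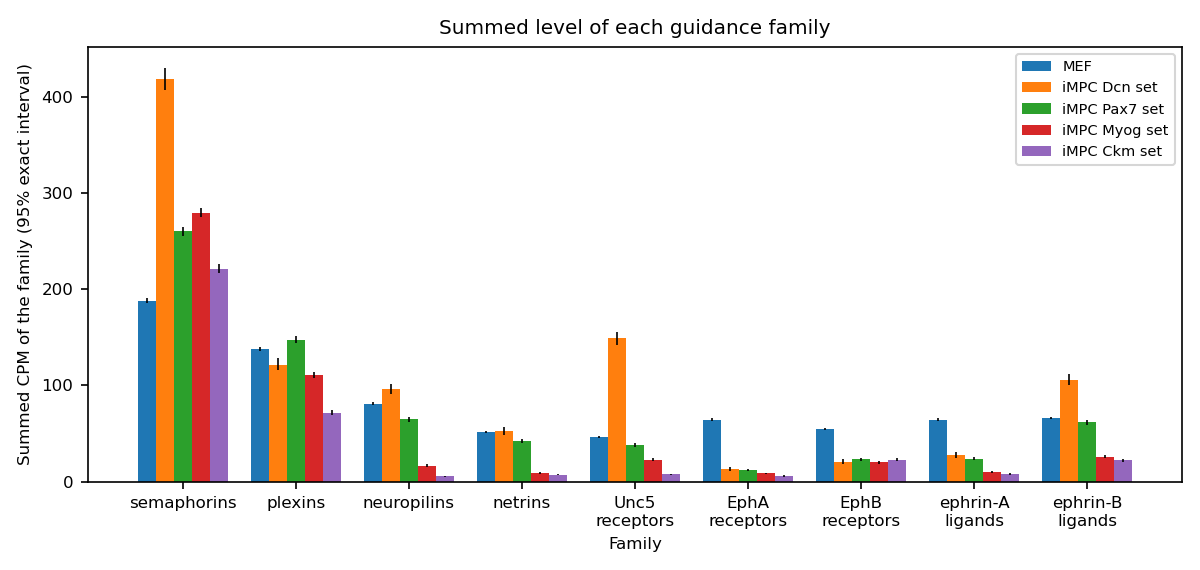
Summed level of each guidance gene family (CPM, vertical axis) in MEF cells and the 4 iMPC cell sets, with exact 95% Poisson intervals for counting error. The semaphorin sum is above 180 CPM in every set, whereas the neuropilin, netrin, Unc5, EphA and ephrin-A sums are under 10 CPM in the Ckm set.

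**Figure D2:**
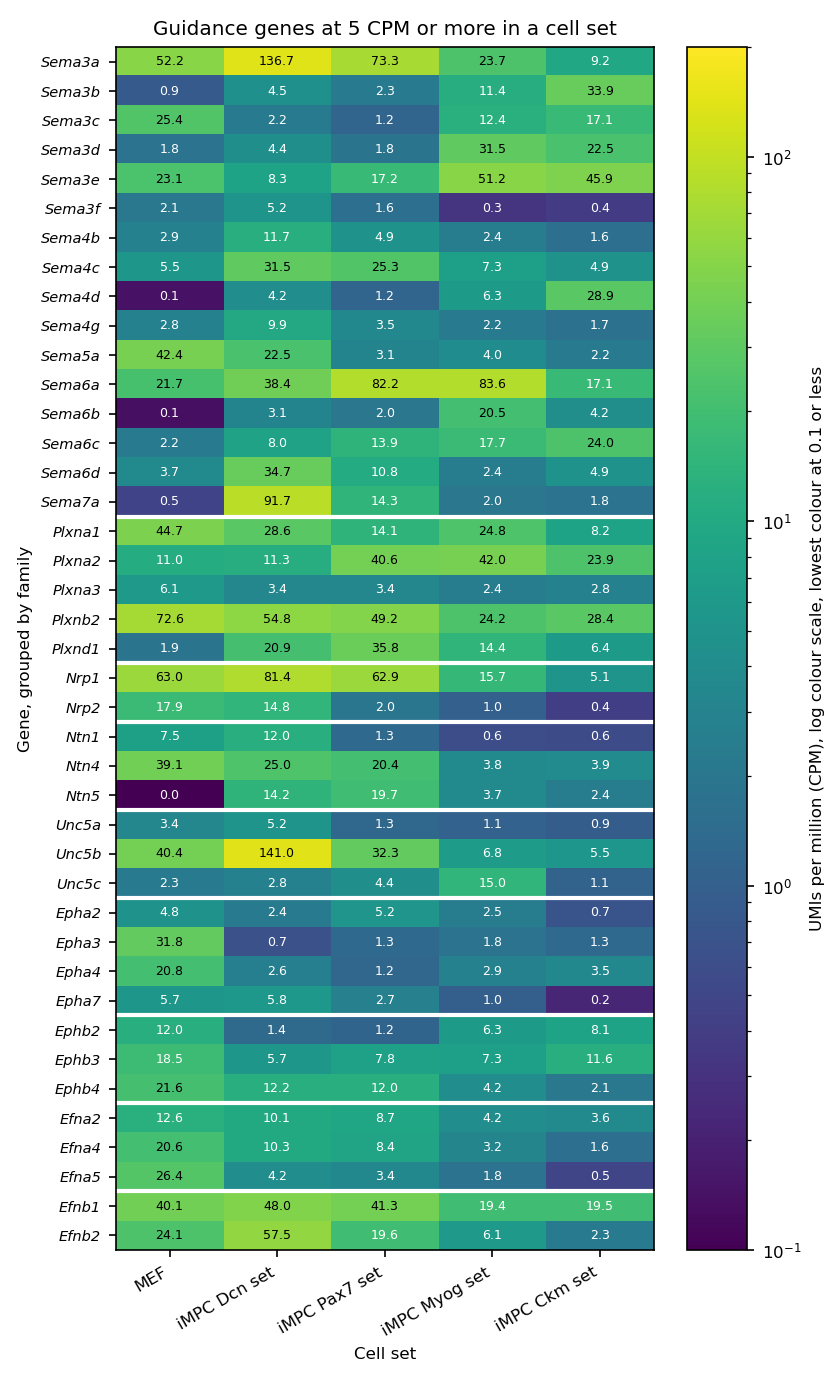
Level (CPM, printed in each cell and coloured on a log scale) of each guidance gene that reached 5 CPM, by cell set. Rows are genes by family and columns are MEF, the Dcn set and the Pax7, Myog and Ckm sets. Sema3a and Unc5b are the only genes shown above 100 CPM, both in the Dcn set.

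A gene was counted as higher or lower in a comparison when its levels differed at least 2-fold and reached 5 CPM in the higher set. Between the whole iMPC library and MEF, 36 guidance genes reached 5 CPM, of which 13 were higher and 15 lower in iMPC. Of all 10277 genes at that level 15.5% were higher and 21.9% lower (37.4% in either direction), and the median log2 ratio was -0.79 for the guidance genes and -0.17 for all genes. By family, 9 of 13 semaphorins were higher and 2 lower, whereas all 3 EphA receptors, 3 EphB receptors and 3 ephrin-A ligands at 5 CPM were lower and none was higher.

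From the Pax7 to the Myog set, 29 guidance genes reached 5 CPM, with 8 higher and 16 lower in the Myog set. Over all 9660 genes the shares were 7.02% higher and 12.8% lower (19.8% in either direction), and the median log2 ratio was -1.05 for the guidance genes against -0.17 for all genes. The 8 higher genes were 6 semaphorins (Sema3b, Sema3c, Sema3d, Sema3e, Sema4d and Sema6b), Unc5c and Ephb2. From the Myog to the Ckm set, 21 reached 5 CPM, with 2 higher (Sema3b and Sema4d) and 8 lower, where all 9125 genes had 6.52% higher and 15.1% lower (21.6% in either direction). The median log2 ratio was -0.49 for the guidance genes and -0.25 for all genes. These comparisons share the Myog set.

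Against the Pax7 set, the Dcn set had 13 guidance genes higher and 4 lower of 30 at 5 CPM, where all 9945 genes had 11.7% higher and 6.9% lower (18.6% in either direction). Against MEF, the Dcn set had 12 higher and 8 lower of 35, where all 10283 genes had 14.3% higher and 13.4% lower (27.7% in either direction). Their median log2 ratios were 0.35 and 0.04, against 0.02 and -0.09 for all genes. The median against the Pax7 set was 0.62 after thinning to 5000 UMIs per cell. That against MEF was 0.27 with doublets removed and turned to -0.05 against the MEF cells with at least 5 Dcn UMIs, so it had no stable direction. Both use the Dcn set, and they share the Pax7 set or the MEF cells with the comparisons above, so they are not independent of those.

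**Figure D3:**
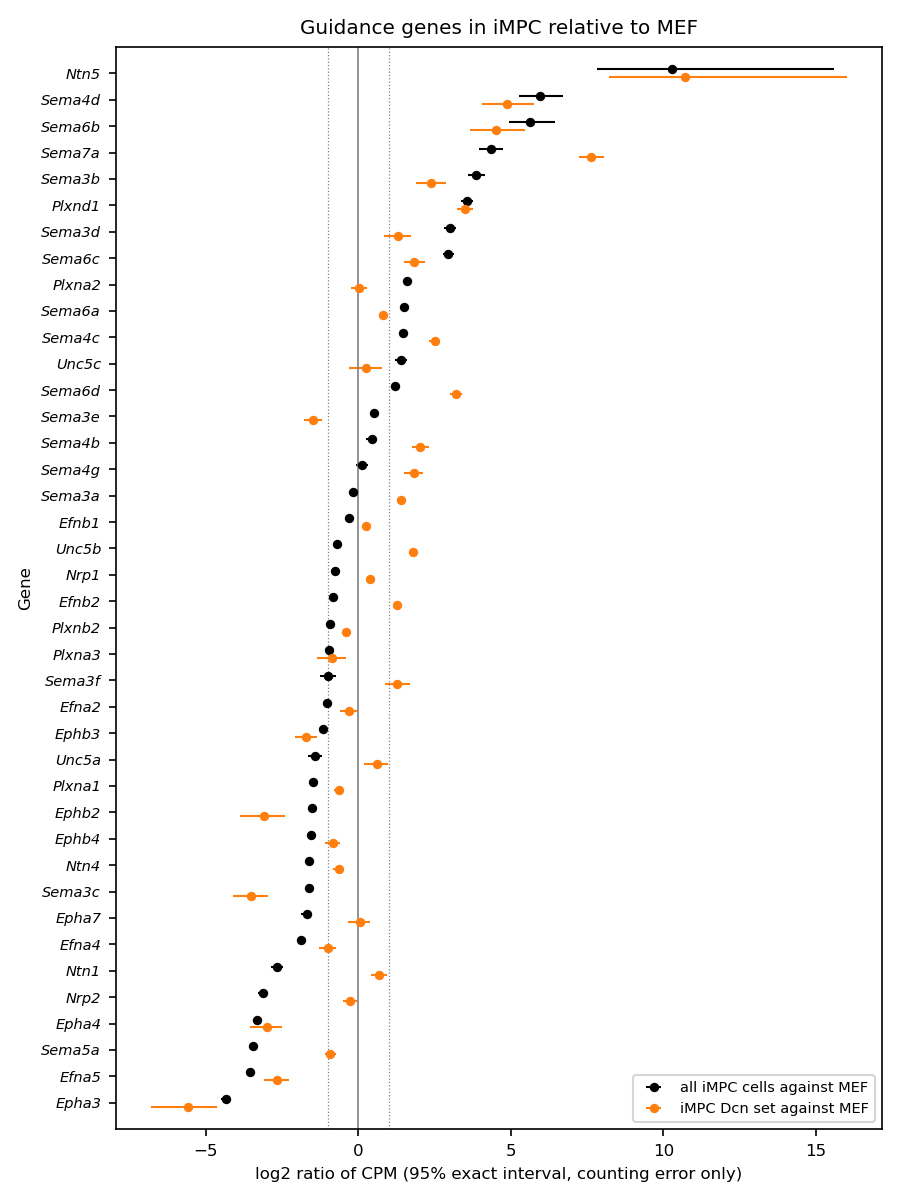
Log2 ratio to MEF (horizontal axis) of all iMPC cells and of the Dcn set, for the guidance genes that reached 5 CPM in either comparison. Bars are exact conditional 95% intervals for counting error. Both ratios use the same MEF cells, and the Dcn set is part of the iMPC cells. Epha3, Epha4 and Efna5 lie left of 0 in both, and Ntn5 and Sema7a lie right of 0 in both.

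Among the secreted class 3 semaphorins, Sema3a, the ligand of the neuropilin 1 and plexin A receptor pair, was lower at each muscle step. It was at 73.3 CPM (70.8 to 75.9) in the Pax7 set, 23.7 CPM (22.3 to 25.1) in the Myog set and 9.17 CPM (8.34 to 10.1) in the Ckm set, which are steps of 3.10-fold and 2.58-fold. It was at 137 CPM (130.2 to 143) in the Dcn set and 52.2 CPM (50.9 to 53.6) in MEF, 2.62-fold apart. The libraries as wholes differed by 1.13-fold, 46.1 CPM in iMPC against 52.2 in MEF, although the sets inside iMPC spanned the range from below to above MEF.

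Sema3d, Sema3e, Sema3c and Sema3b ran the other way, low in the Pax7 set and higher once Myog was present. Sema3d was at 1.84 CPM (1.46 to 2.29) in the Pax7 set, 31.5 CPM (29.9 to 33.1) in the Myog set and 22.5 CPM (21.2 to 23.9) in the Ckm set, and at 1.80 CPM in MEF and 4.44 CPM in the Dcn set. Its log2 ratio between the Myog and Pax7 sets was 4.10 (3.77 to 4.44), a 17.1-fold difference. Sema3e, which binds plexin D1 without a neuropilin, was at 17.2, 51.2 and 45.9 CPM in the Pax7, Myog and Ckm sets, 8.30 CPM (6.76 to 10.1) in the Dcn set and 23.1 CPM in MEF. It was thus 2.97-fold higher in the Myog than in the Pax7 set and 2.78-fold lower in the Dcn set than in MEF. Sema3c, known from the heart outflow tract, was at 1.18 CPM (0.882 to 1.55) in the Pax7 set, 12.4 in the Myog set, 17.1 in the Ckm set and 2.22 in the Dcn set, against 25.4 CPM in MEF. The Myog set was 10.5-fold above the Pax7 set and below MEF. Sema3b was at 0.864 CPM in MEF, 2.27 in the Pax7 set, 4.52 in the Dcn set, 11.4 in the Myog set and 33.9 CPM (32.3 to 35.6) in the Ckm set, a rank order in which the Ckm set was 2.97-fold above the Myog set.

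Sema3f, a neuropilin 2 ligand, reached 5.18 CPM (3.98 to 6.62) in the Dcn set against 1.59 in the Pax7 set and 2.13 in MEF, and Sema3g stayed under 1 CPM. In the Dcn set the deficits of Sema3e and Sema3c widened when cells were removed. Without cells that belong to several sets, the log2 ratio of Sema3e to the Pax7 set moved from -1.06 to -2.33 and that to MEF from -1.48 to -2.69, and that of Sema3c to MEF moved from -3.52 to -5.10. Sema3d, Sema3a, Sema3e and Sema3c lie in that order within 5.35 Mb of chromosome 5 (12383385 to 17730268, GRCm38, GENCODE M21), so that Sema3a, lower in the Myog than in the Pax7 set, lies between genes that were higher there.

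Promoter bases are shown for 5 members, the neighbouring Sema3a and Sema3d with opposite orders of level, Ephb2, which was higher in the Myog set, and Ntn5 and Sema7a, the members with the lowest MEF levels relative to the Dcn set. They are the 250 bases before the RefSeq start on GRCm38.p6, each read 5′ to 3′ on the gene's strand: chr5:13396534-13396783 (+), chr5:12382916-12383165 (+), chr4:136836013-136836262 (-), chr7:45683772-45684021 (+) and chr9:57939862-57940111 (+). The Sema3a window lies inside the longer GENCODE gene, and overlap of the windows with exons was not examined. Capitals mark a match to CAGCTG or to CACCTG, the E-box forms read by MyoD and related factors, searched on both strands (CACCTG reads CAGGTG on the other).
Sema3a: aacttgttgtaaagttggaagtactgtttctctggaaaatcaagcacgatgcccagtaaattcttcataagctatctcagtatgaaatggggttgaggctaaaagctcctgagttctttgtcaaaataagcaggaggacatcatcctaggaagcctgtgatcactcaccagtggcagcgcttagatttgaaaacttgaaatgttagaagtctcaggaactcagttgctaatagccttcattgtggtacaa
Sema3d: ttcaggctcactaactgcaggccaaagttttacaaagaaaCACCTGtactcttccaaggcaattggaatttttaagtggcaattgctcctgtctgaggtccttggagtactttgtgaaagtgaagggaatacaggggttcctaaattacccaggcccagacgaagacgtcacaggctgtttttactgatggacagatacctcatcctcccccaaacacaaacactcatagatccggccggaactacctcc
Ephb2: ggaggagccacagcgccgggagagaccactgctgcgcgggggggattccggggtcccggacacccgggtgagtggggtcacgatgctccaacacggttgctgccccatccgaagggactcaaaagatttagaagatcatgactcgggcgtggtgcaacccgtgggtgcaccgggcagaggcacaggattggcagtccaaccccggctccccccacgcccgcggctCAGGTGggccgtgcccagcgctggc
Ntn5: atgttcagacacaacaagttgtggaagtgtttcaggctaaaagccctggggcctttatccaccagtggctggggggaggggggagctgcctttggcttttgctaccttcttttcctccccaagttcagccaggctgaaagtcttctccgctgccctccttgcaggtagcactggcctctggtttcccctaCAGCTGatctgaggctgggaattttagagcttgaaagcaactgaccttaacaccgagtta
Sema7a: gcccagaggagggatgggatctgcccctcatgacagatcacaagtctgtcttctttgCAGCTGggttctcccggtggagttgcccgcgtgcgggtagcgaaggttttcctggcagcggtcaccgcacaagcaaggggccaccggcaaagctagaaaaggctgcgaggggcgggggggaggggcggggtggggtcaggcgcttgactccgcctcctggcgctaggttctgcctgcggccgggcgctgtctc
The Sema3a window held neither form. The first base of the match lay 210 bases before the start in Sema3d, 25 in Ephb2, 60 in Ntn5 and 193 in Sema7a. RefSeq promoters matched 53 of the 61 members with 67 windows. CAGCTG was in 10 of these (14.9%) and in 13.0% of all 32851 windows, and CACCTG in 8 (11.9%) and in 17.2% of all. The windows shown do not stand for all genes with their order. Of the other genes higher in the Myog than in the Pax7 set, Sema3c, Sema3e, Unc5c and Sema6b had no match. Sema4d had a match, and Sema3b had no window. Of the genes lower there, Sema4c, Sema6d, Efnb2 and Plxnb2 had a match, beside Ntn5 and Sema7a. A match is a description of the letters and not of a bound factor.

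Of the membrane-bound semaphorins, Sema4d and Sema6b were far lower in MEF than in the muscle sets. Sema4d, a plexin B1 ligand, was at 0.144 CPM (0.0839 to 0.231, 17 UMIs) in MEF and 28.9 CPM (27.4 to 30.5) in the Ckm set. Its levels of 1.18 CPM in the Pax7 set, 6.32 in the Myog set and 4.19 in the Dcn set lay between, so its step from the Pax7 to the Myog set (5.35-fold) was followed by one of 4.58-fold to the Ckm set. Sema6b, another transmembrane ligand, was highest in the Myog set at 20.5 CPM (19.2 to 21.9), against 2.02 in the Pax7 set, 4.23 in the Ckm set, 3.12 in the Dcn set and 0.136 CPM (16 UMIs) in MEF. It was 10.1-fold higher in the Myog than in the Pax7 set and 4.85-fold lower again in the Ckm set.

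Sema6a, the ligand of plexins A2 and A4, was at 82.2 CPM (79.5 to 84.9) in the Pax7 set and 83.6 CPM (81.0 to 86.3) in the Myog set, whose intervals overlap. It was at 17.1 CPM (16.0 to 18.3) in the Ckm set, 4.89-fold below the Myog set, and at 38.4 CPM in the Dcn set and 21.7 CPM in MEF. Sema6c was at 2.24 CPM in MEF, 7.97 in the Dcn set, 13.9 in the Pax7 set, 17.7 in the Myog set and 24.0 in the Ckm set, 7.69-fold higher over the whole iMPC library than in MEF. Neither of its muscle steps reached 2-fold (1.27 and 1.36).

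Sema7a, the one semaphorin with a lipid anchor, had its highest level in the Dcn set. It was at 91.7 CPM (86.4 to 97.2) there, 14.3 CPM (13.2 to 15.5) in the Pax7 set, 2.01 in the Myog set, 1.81 in the Ckm set and 0.466 CPM (0.351 to 0.606) in MEF. The Dcn set was therefore 197-fold above MEF (log2 ratio 7.62, 7.23 to 8.04) and 6.40-fold above the Pax7 set. Part of the Pax7 set's level lay in cells that also hold Dcn: without cells with a Dcn UMI, 1931 cells remained and Sema7a was at 6.41 CPM (5.64 to 7.26), so its log2 ratio of the Myog to the Pax7 set moved from -2.83 to -1.67, and it was -4.18 with marked doublets removed. MEF cells include 2179 (36.1%) with at least 5 Dcn UMIs, and their Sema7a is part of the MEF value.

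The other membrane semaphorins followed the Dcn and Pax7 sets. Sema6d, a plexin A1 ligand, was at 34.7 CPM (31.4 to 38.1) in the Dcn set, 10.8 in the Pax7 set, 2.42 in the Myog set, 4.93 in the Ckm set and 3.74 in MEF, 9.28-fold apart between the Dcn set and MEF. Sema4c, a plexin B2 ligand, was at 31.5 CPM in the Dcn set and 25.3 CPM in the Pax7 set, against 7.25 in the Myog set, 4.91 in the Ckm set and 5.54 in MEF. Sema4b reached 11.7 CPM (9.90 to 13.8) and Sema4g 9.94 CPM (8.25 to 11.9) in the Dcn set and both stayed under 5 CPM in every other set. Sema5a, which carries thrombospondin repeats, differed from all of these in being highest in MEF, at 42.4 CPM (41.3 to 43.6), with 22.5 CPM in the Dcn set, 3.09 in the Pax7 set, 3.98 in the Myog set and 2.22 in the Ckm set. It was 11.0-fold lower in iMPC as a whole and 7.29-fold higher in the Dcn set than in the Pax7 set. Sema4a, Sema4f and Sema5b stayed under 1 CPM.

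Of the receptors for these ligands, the neuropilins differed in the Pax7 set: Nrp1 was as high there as in MEF, whereas Nrp2 was high in MEF and the Dcn set only. Nrp1, the Sema3a co-receptor, was at 63.0 CPM (61.6 to 64.4) in MEF, 81.4 CPM (76.4 to 86.6) in the Dcn set and 62.9 CPM (60.5 to 65.2) in the Pax7 set. It was at 15.7 CPM (14.6 to 16.9) in the Myog set and 5.10 CPM (4.48 to 5.77) in the Ckm set, so the level was 3.99-fold lower at the first muscle step and 3.09-fold lower at the second, in the same order as its ligand Sema3a. Nrp2 was at 17.9 CPM in MEF and 14.8 CPM in the Dcn set but at 1.95, 1.02 and 0.411 CPM in the Pax7, Myog and Ckm sets. It was 7.57-fold higher in the Dcn than in the Pax7 set, and the difference from MEF was 1.21-fold.

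Plexins, which carry the signal into the cell, did not share one order of levels. Plxnd1, the Sema3e receptor, was at 1.85 CPM (1.62 to 2.12) in MEF, 35.8 CPM (34.1 to 37.6) in the Pax7 set, 20.9 in the Dcn set, 14.4 in the Myog set and 6.35 in the Ckm set. It was 11.8-fold higher in iMPC than in MEF and was 2.48-fold lower in the Myog than in the Pax7 set, where its ligand gene Sema3e was higher. Plxna2, the Sema6a receptor, was at 40.6 CPM (38.8 to 42.5) in the Pax7 set, 42.0 CPM (40.2 to 43.9) in the Myog set and 23.9 in the Ckm set, and at 11.3 and 11.0 CPM in the Dcn set and MEF. The Pax7 and Myog sets again did not differ beyond their intervals, as for Sema6a. Plxna1 was at 44.7 CPM in MEF, 28.6 in the Dcn set, 14.1 in the Pax7 set, 24.8 in the Myog set and 8.18 in the Ckm set. Its 2.03-fold difference between the Dcn and Pax7 sets was under 2-fold with 3 other scalings, its lowest log2 ratio being 0.91.

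Plxnb2, the Sema4c receptor, was at 24.2 CPM or more in each set: 72.6 CPM in MEF, 54.8 in the Dcn set, 49.2 in the Pax7 set, 24.2 in the Myog set and 28.4 in the Ckm set. Its 2.03-fold step from the Pax7 to the Myog set was lost under other scalings (lowest size, log2 ratio -0.81). Plxna3 reached 6.06 CPM in MEF and 2.40 to 3.37 CPM in the iMPC sets and was past 2-fold in no comparison, the one such gene among the 41. Plxnb1, the receptor of Sema4d, stayed at 0.945 to 3.16 CPM, Plxna4 at 1.05 CPM or less, Plxnc1, the plexin that binds Sema7a, at 1.25 CPM or less, and Plxnb3 under 1 CPM.

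The netrins separated by member. Ntn5 was nearly absent from MEF, with 1 UMI in 118069653 (0.00847 CPM, 0.000214 to 0.0472), and was at 19.7 CPM (18.4 to 21.1) in the Pax7 set, 14.2 CPM (12.2 to 16.5) in the Dcn set, 3.66 in the Myog set and 2.43 in the Ckm set. The ratio of iMPC to MEF, 1252-fold, rests on that 1 UMI and has a log2 interval of 7.81 to 15.59. Ntn5 overlaps Sec1 on the other strand, and whether the counting used strand is not given in the sources used here. Ntn4, a netrin that binds laminin in basement membranes, was at 39.1 CPM (38.0 to 40.2) in MEF, 25.0 in the Dcn set, 20.4 in the Pax7 set, 3.83 in the Myog set and 3.86 in the Ckm set, a 5.32-fold difference between the Pax7 and Myog sets. Ntn1, the classical netrin, reached 5 CPM in MEF and the Dcn set, with 7.53 CPM in MEF and 12.0 CPM (10.1 to 14.1) in the Dcn set against 1.34, 0.606 and 0.575 CPM in the Pax7, Myog and Ckm sets. Its log2 ratio of the Dcn to the Pax7 set was 3.16, and 4.78 when Pax7 set cells with a Dcn UMI were left out. Ntn3 reached 4.82 CPM in MEF and overlaps Tbc1d24 on the same strand, so its level is uncertain.

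Among netrin receptors, Unc5b, which is also known from endothelial tip cells, had its highest level in the Dcn set. It was at 141 CPM (134 to 148) there, 40.4 CPM (39.2 to 41.5) in MEF, 32.3 CPM (30.7 to 34.1) in the Pax7 set, 6.78 in the Myog set and 5.47 in the Ckm set. The Dcn set was 4.36-fold above the Pax7 set and 3.49-fold above MEF, and the Myog set was 4.77-fold below the Pax7 set. Unc5c had another order, with its highest level of 15.0 CPM (13.9 to 16.2) in the Myog set, between 4.41 CPM in the Pax7 set and 1.13 CPM (0.852 to 1.47) in the Ckm set. It was 3.41-fold higher and then 13.3-fold lower at these steps, and was at 2.79 CPM in the Dcn set and 2.35 CPM in MEF. Unc5a reached 5.18 CPM in the Dcn set (3.40 in MEF, 0.945 to 1.32 in the other iMPC sets), and Unc5d had 66 UMIs (0.559 CPM) in MEF and none in any of the 4 iMPC sets, where 3 counts are 0.0617 to 0.246 CPM.

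The EphA receptors Epha3 and Epha4 were at their highest in MEF, whereas Epha7 and Epha2 had higher or like levels in an iMPC set. Epha3 was at 31.8 CPM (30.8 to 32.8) in MEF, 1.34 in the Pax7 set, 1.82 in the Myog set, 1.34 in the Ckm set and 0.657 CPM (0.284 to 1.29) in the Dcn set, 20.3-fold lower in iMPC as a whole (log2 ratio -4.34, -4.50 to -4.19). The Dcn set was 48.4-fold below MEF, so its level there was as low as in the muscle sets. Epha4, a receptor that binds ephrins of both classes, was at 20.8 CPM in MEF and 1.23, 2.86, 3.45 and 2.63 CPM in the Pax7, Myog, Ckm and Dcn sets. Epha7 had a second high level in the Dcn set: it was at 5.66 CPM (5.24 to 6.10) in MEF and 5.83 CPM (4.56 to 7.36) there, with 2.75 in the Pax7 set, 0.996 in the Myog set and 0.226 in the Ckm set. Epha2 was at 4.82 CPM in MEF, 5.25 in the Pax7 set, 2.47 in the Myog set, 0.719 in the Ckm set and 2.38 in the Dcn set. Epha1 reached 1.48 CPM at most, Epha5, Epha8 and Epha10 stayed under 1 CPM, and Epha6 had 0 UMIs in both libraries, which allows up to 0.0254 CPM in MEF and 0.0129 in iMPC.

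The EphB receptors Ephb2, Ephb3 and Ephb4 were highest in MEF but did not share an order among the muscle sets. Ephb2 was at 12.0 CPM (11.4 to 12.6) in MEF and 1.40 in the Dcn set, and at 1.16 CPM (0.863 to 1.52) in the Pax7 set, 6.34 CPM (5.64 to 7.11) in the Myog set and 8.12 CPM (7.34 to 8.96) in the Ckm set. It was the only Eph receptor counted as higher at a muscle step, by 5.47-fold. Ephb3 was at 18.5 CPM in MEF, 5.67 in the Dcn set, 7.84 in the Pax7 set, 7.32 in the Myog set and 11.6 in the Ckm set. Ephb4, the ephrin-B2 receptor, ran opposite to Ephb2, with 21.6 CPM in MEF, 12.2 in the Dcn set, 12.0 in the Pax7 set, 4.20 in the Myog set and 2.12 in the Ckm set. Ephb6 reached 2.69 CPM, in MEF. Ephb1 had 0 UMIs in MEF and 155 in iMPC, with its highest level of 1.60 CPM in the Myog set.

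The ephrins, their ligands, did not share an order of levels within either class. Efna5 was at 26.4 CPM (25.5 to 27.3) in MEF against 3.43, 1.80, 0.493 and 4.19 CPM in the Pax7, Myog, Ckm and Dcn sets, 11.7-fold lower in iMPC as a whole. Efna4 was at 20.6 CPM in MEF, 8.38 in the Pax7 set and 10.3 in the Dcn set, with the Myog set 2.62-fold below the Pax7 set and the Ckm set at 1.58 CPM. Efna2 was at 12.6 CPM in MEF, 8.68, 4.18 and 3.64 CPM along the muscle sets and 10.1 CPM in the Dcn set. Of the ephrin-B ligands, Efnb2 was counted as higher in the Dcn set than in MEF, whereas the difference of Efnb1 was under 2-fold. Efnb2 was at 24.1 CPM (23.2 to 25.0) in MEF, 57.5 CPM (53.3 to 61.9) in the Dcn set, 19.6 in the Pax7 set, 6.15 in the Myog set and 2.34 in the Ckm set, 2.94-fold higher in the Dcn than in the Pax7 set and 3.19-fold lower in the Myog set. Efnb1 was at 40.1 CPM in MEF, 48.0 in the Dcn set, 41.3 in the Pax7 set and 19.4 and 19.5 in the Myog and Ckm sets. Efnb3 went the other way, at 1.94 CPM (1.70 to 2.21) in MEF and 0.575 CPM (0.231 to 1.18) in the Dcn set. Efna3 reached 4.35 CPM at most, in MEF. Efna1 differed from the other ephrin-A ligands in being lowest in MEF, at 0.288 CPM, and reached 2.52 CPM at most, in the Pax7 set.

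Several of these calls lay close to 2-fold. That of Efna4 between the Dcn set and MEF held in 9 of 17 alternative settings, its weakest log2 ratio being -0.81. That of Efna2 in iMPC against MEF held in 11 of 16. For Efna2 and Ephb3 in iMPC against MEF, for Efna2, Efnb1 and Epha2 at the step from the Pax7 to the Myog set, for Plxnd1 at the step to the Ckm set and for Efna4 between the Dcn set and MEF, scaling by the median of gene ratios put the ratio under 2-fold, with log2 ratios from -0.84 to -0.97. At 5000 UMIs per cell, Sema4b in the Dcn against the Pax7 set also fell short, with a log2 ratio of 0.76, and without mitochondrial and ribosomal genes in the totals Epha7 did so at 0.97.

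Splitting the muscle sets more finely showed where along them each level stood. The Pax7 set was split after thinning into 1056 cells without a UMI of the cycling genes Mki67 and Top2a (median 15786.5 UMIs) and 855 cells with at least 2 (median 22770), the Myog set at 20 Myog UMIs and the Ckm set at 20 Ckm UMIs, leaving out a step of 6 cells with 100 or more. Sema3a ran from 101 CPM (96.0 to 105) in the Pax7 cells without cycling UMIs to 52.6 in those with them, 32.3 and 20.1 in the lower and higher Myog steps and 9.90 and 8.06 in the Ckm steps. Nrp1 followed the same order at 82.2, 49.9, 23.3, 12.7, 6.05 and 3.62 CPM. Both therefore differed between steps inside a set and not only between sets.

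Other genes peaked midway. Sema3d was at 1.24, 2.43, 13.5, 38.8, 26.9 and 15.5 CPM over the same 6 steps, highest in the cells with 20 or more Myog UMIs. Sema6a peaked one step earlier, at 101 CPM (95.4 to 106) in the cells with 5 to 19 Myog UMIs, against 72.7 and 89.4 before and 76.6, 19.5 and 13.4 after. Sema6b was at 8.31 and 25.5 CPM in the Myog steps and 5.22 and 2.63 in the Ckm steps. Unc5c had the sharpest end, at 15.9 CPM (14.5 to 17.3) in the higher Myog step and 1.33 CPM (0.950 to 1.81) in the next. Sema4d was highest at the last step, with 22.9 and 37.9 CPM (35.2 to 40.9) in the Ckm steps after 7.03 and 6.03 in the Myog steps.

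**Figure D4:**
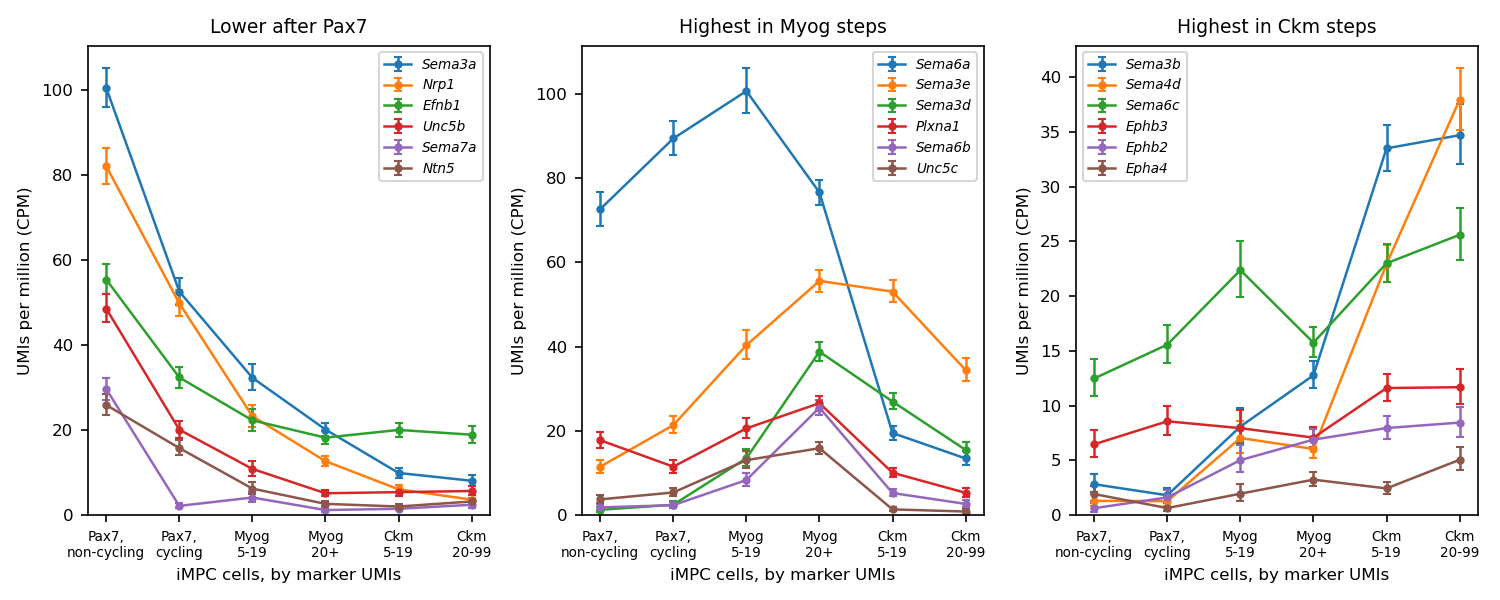
Level (CPM, vertical axis, with exact 95% Poisson intervals) of guidance genes over 6 steps of iMPC cells: the Pax7 set without and with cycling UMIs, 2 Myog steps and 2 Ckm steps. One panel holds genes that are lower after the Pax7 steps, such as Sema3a from 101 to 8.06 CPM, the next those highest in a Myog step and the last those highest in a Ckm step, such as Sema4d at 37.9 CPM.

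The comparison of Pax7 cells without and with cycling UMIs was added after the data had been seen. Of 25 guidance genes at 5 CPM, 5 were higher in the cells without cycling UMIs (Sema6d, Sema4b, Sema7a, Unc5b and Sema4g) and none lower, where all 9600 genes had 5.46% higher and 5.48% lower (10.9% in either direction). The median log2 ratio was 0.63 for the guidance genes and -0.05 for all genes. Sema7a differed most, at 29.7 CPM (27.2 to 32.3) against 2.14 CPM (1.56 to 2.87), 13.9-fold. Sema3a was 1.91-fold higher, and Sema3e was 1.86-fold lower, at 11.5 against 21.4 CPM. All 5 were also higher in the Dcn than in the Pax7 set, with which they share cells, and when cells with a Dcn UMI were left out (881 cells without and 806 with cycling UMIs), Sema7a, Sema6d and Sema4b stayed past 2-fold. Sema7a was then at 13.1 CPM (11.3 to 15.1) against 1.31, Sema6d at 12.8 against 5.35 and Sema4b at 5.51 against 2.52 CPM. The other two calls ended: Unc5b, at 31.5 against 17.8 CPM, was under 2-fold, and Sema4g, at 3.74 against 1.84 CPM, was under 5 CPM. The median log2 ratio of the guidance genes was then 0.31.

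Shares of cells were compared after each cell had been thinned to 5000 UMIs, which left out 284 shallower MEF cells and none of iMPC. A Sema3a UMI was then found in 49.2% of Dcn set cells (44.9 to 53.4), 26.5% of the Pax7 set (24.6 to 28.4), 10.1% of the Myog set and 4.15% of the Ckm set (3.02 to 5.55), against 22.8% of MEF cells. The shares were 83.9, 54.7, 32.5, 24.1 and 54.4% before thinning, in cells of unequal depth. For Sema7a the thinned shares were 34.9% of the Dcn set (30.9 to 39.0), 6.38% of the Pax7 set, 0.638% of the Myog set, 0.579% of the Ckm set and 0.295% of MEF cells, and 66.4, 13.1, 2.96, 4.63 and 0.728% before thinning.

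Among the genes highest in the Myog or Ckm set, Sema6a had the widest share of those given here, with a UMI in 35.2% of the Myog set (32.9 to 37.5), 30.8% of the Pax7 set and 9.53% of MEF cells. Sema3e gave one in 21.1% of the Myog set, 19.8% of the Ckm set and 8.65% of MEF cells. Sema3d gave a UMI in 13.4% of the Myog set (11.8 to 15.1) and 9.74% of the Ckm set, against 0.505% of the Pax7 set (0.252 to 0.901), 0.542% of the Dcn set and 0.972% of MEF cells. Sema4d gave one in 13.0% of the Ckm set (11.0 to 15.2) and 2.32% of the Myog set, against 0.0695% of MEF cells, and before thinning in 50.0, 10.2 and 0.281%. Ntn5 gave one in 8.94% of the Pax7 set (7.78 to 10.2) and in 0 of 5759 MEF cells, which allows a share of up to 0.0521% by 3 counts. Epha3 was found in 13.2% of MEF cells (12.3 to 14.1) and in 0.362 to 0.928% of cells of the 4 iMPC sets.

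**Figure D5:**
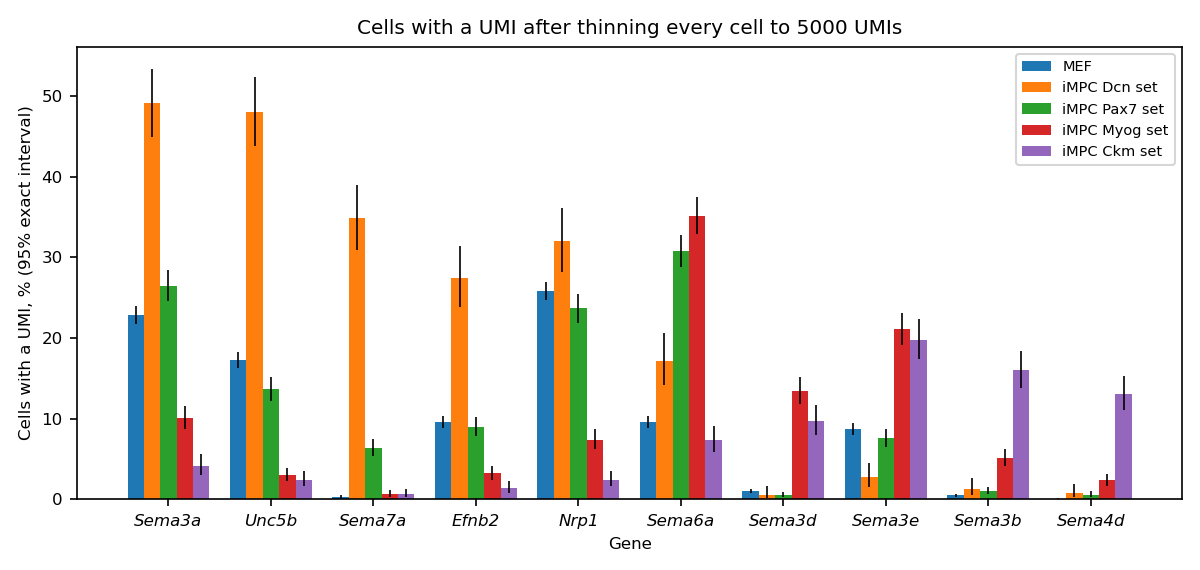
Share of cells with at least 1 UMI (percent, with exact 95% binomial intervals) of selected guidance genes by cell set, after each cell was thinned to 5000 UMIs. Sema3a is highest in the Dcn set at 49.2% and lower in the Pax7, Myog and Ckm sets, where it reaches 4.15%.

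Other genes of these pathways were read from a list of 40. Between iMPC and MEF, 26 of them reached 5 CPM, with 3 higher (Robo1, Dpysl4 and Nrcam) and 10 lower (Slit2, Slit3, Dpysl2, Dpysl3, Crmp1, Mical2, Farp1, Farp2, Tiam1 and Flna), where all genes had 15.5% higher and 21.9% lower. From the Pax7 to the Myog set 23 reached it, with 1 higher (Mical2) and 9 lower, beside 7.02% and 12.8% of all genes. From the Myog to the Ckm set it was 21, with 1 higher (Slit1) and 7 lower, beside 6.52% and 15.1%. The Dcn set had 4 higher and 4 lower of 24 against the Pax7 set, beside 11.7% and 6.9% of all genes, and 2 higher and 7 lower of 25 against MEF, beside 14.3% and 13.4%.

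The netrin receptor Dcc was nearly unmeasured, at 0 UMIs in MEF and 0.00430 CPM in iMPC, whereas the related receptor neogenin (Neo1) was at 20.4 CPM in MEF and 11.7 to 14.9 CPM in the iMPC sets. Slit3, a repulsive ligand of Robo receptors, was at 189 CPM in MEF, 12.7 in the Dcn set and 0.164 to 0.772 CPM in the other iMPC sets. Its receptor gene Robo1 was at 7.17 CPM in MEF, 54.3 in the Pax7 set, 24.3 in the Myog set, 5.08 in the Ckm set and 50.6 in the Dcn set. Slit2 resembled Unc5b in order, with 93.8 CPM in the Dcn set, 55.3 in MEF, 41.8 in the Pax7 set, 6.62 in the Myog set and 4.60 in the Ckm set. Genes of families that include cytoplasmic mediators of semaphorin signals did not share one order. Dpysl2 was at 46.5, 15.2 and 6.58 CPM and Dpysl3 at 52.2, 15.3 and 4.23 CPM in the Pax7, Myog and Ckm sets, against 75.3 and 453 CPM in MEF. Mical2, an oxidoreductase gene of the Mical family, had the opposite muscle order, at 6.68, 14.9 and 27.7 CPM, with 57.5 CPM in MEF. The related Mical3 was at 10.0, 16.3 and 23.9 CPM, neither step reaching 2-fold, and Mical1 at 11.4, 3.51 and 1.81 CPM. Dpysl4 was at 7.25, 11.2 and 1.81 CPM, and the adaptor gene Nck1 at 35.3, 38.1 and 38.1 CPM.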

How the data were processed

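Single-cell RNA of 2 mouse libraries, 1 of iMPC and 1 of MEF, were analysed, with groups from the labels. The values the authors deposited are raw UMI counts for each gene in each barcode, from the 10x 3′ kit per the labels' protocols. Cell Ranger 4.0, Seurat 3.2.3 and the build GRCm38.p6 are named in the submitters' processing notes. The iMPC matrix lists 6794880 barcodes (282903287 UMIs) and the MEF matrix 6113 (118541302 UMIs), and how the latter were selected is not given in the sources used here. The labels give MEF the same protocol text as iMPC, while its own treatment label, which was followed, names MEF media.

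Of the MEF matrix, 24 genes missing from iMPC (0.209% of UMIs) were dropped. Cells had at most 20% mitochondrial UMIs and, in iMPC, at least 8036 UMIs, which is 10% of the 99th percentile of the top 10000 barcodes. Doublets were scored with Scrublet and kept. Its own threshold marked 290 iMPC cells, and in MEF the highest scores, 346 cells, were taken. UMIs were summed per cell set and divided by the set's total (CPM). Intervals at 95% are exact Poisson for levels, exact conditional for ratios and Clopper-Pearson for shares. These intervals cover counting error only and not the spread between cultures. A gene with 0 UMIs has a floor of 3 counts. The ratio code was tested on simulated data. With 1 library per group no test was possible.

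Named genes are all members past 2-fold with at least 5 CPM in 1 of 5 comparisons and the 2 highest of each family. Members, lists and sets were chosen with earlier results of these data known. Software was Python 3.11.15 with scipy 1.17.1, scanpy 1.11.5, matplotlib 3.10.9, pandas 2.3.3 and numpy 2.4.6. All members were found in GENCODE M21. An annotated gene overlaps 20 of them on the same strand and 27 on the other, and their reads may be split. Alternatives covered scaling, thinning, doublets, filters, stricter sets, free RNA and the thresholds.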

Additional observations from a re-analysis of the deposited data

Results flagged for a closer look

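The barcodes of 200 to 600 UMIs in the iMPC matrix, which no comparison used as cells, held 6393 UMIs of guidance genes, 300.8 CPM (293 to 308). The guidance genes summed to 563 CPM (560 to 566) in the iMPC cells. In the 21254587 UMIs of the barcodes of 200 to 600 UMIs, a count of 0 would have allowed 0.141 CPM. In barcodes of 1 to 100 UMIs the sum was 436 CPM. Levels there were 16.7 CPM for Sema3a, 13.7 for Sema3b, 11.1 for Sema4d, 6.87 for Sema7a and 0.941 for Epha3 in the barcodes of 200 to 600 UMIs. The share of such RNA in the cells was not tested, beyond the alternative that subtracts it. That alternative subtracted it from the iMPC cells only and left the MEF counts unchanged.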

How the results depend on the processing

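No paired analysis was possible because each group holds 1 library. The 18 alternatives were read for the 104 pairs of a gene and a comparison that were past 2-fold. They gave 1509 values of single genes within the rule's tolerance of the main value, 221 that moved and 0 with the other sign. These pairs were chosen for a large main ratio, so a change of sign was unlikely beforehand, and other ratios are not covered. Of the 104 pairs, 47 were past 2-fold under all their settings. Of the counts, 81 stayed within 1.5 times. The 19 others were as follows, for iMPC against MEF (28 past 2-fold), Myog against Pax7 (24), Ckm against Myog (10), Dcn against Pax7 (17), Dcn against MEF (20) and Pax7 cells without against with cycling UMIs (5). With a minimum of 20 CPM they were 12, 11, 6, 8, 13 and 2, and with no minimum 43, 42, 25, 27, 36 and 20, since the minimum sets how many genes are counted. With a minimum of 1 CPM, Ckm against Myog gave 17 and the cycling comparison 14. The cycling comparison also gave 8 with totals without mitochondrial and ribosomal genes, 11 without the 200 highest genes, 8 after thinning, 14 at 1.5-fold and 3 without cells holding Dcn UMIs. The causes were not tested. Over the alternatives the median log2 ratio of the guidance genes ran from -0.80 to -0.48 in iMPC against MEF, -1.12 to -0.84 in Myog against Pax7, -0.90 to -0.21 in Ckm against Myog, 0.23 to 0.62 in Dcn against Pax7, -0.05 to 0.27 in Dcn against MEF and 0.31 to 0.72 in the cycling comparison.

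Scaling by the median of gene ratios shifted all log2 ratios by 0.18 in iMPC against MEF, 0.21 in Myog against Pax7 and 0.28 in Ckm against Myog, and by less than 0.1 in size in the others. Depth limits the Dcn set most: 3 counts there are 0.246 CPM, against 0.0254 in MEF. At 5000 UMIs per cell the Ntn5 ratios had log2 values of 7.04 and 7.19 for lack of MEF counts, and that of Unc5c from Myog to Ckm moved from -3.73 to -6.64.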
